A study of Mus musculus with 9 samples.

Results

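Transcripts of 10 genes of cellular energy sensing were followed in round spermatids (RS), the haploid germ cells that form when meiosis is complete. The genes encode the catalytic and regulatory subunits of the AMP-activated protein kinase AMPK (Prkaa1, Prkaa2, Prkab1 and Prkag1), its activating kinase LKB1 (Stk11), the kinase mTOR with its partner raptor (Mtor and Rptor), and 3 brakes on mTOR (Tsc1, Tsc2 and Ddit4). They were chosen by name, with earlier results of these data known, and each was found once among the 55414 genes of the deposited table. All 10 were among the 25128 genes tested, those with at least 10 counts summed over all libraries. RS were sorted by fluorescence from testes of Stra8-Tom mice, in which Stra8-driven Cre recombinase switches on a tdTomato reporter under the CAG promoter. The genotype is given as WT. The labels give no age, and the methods speak of prepubertal mice and of adult mice of more than 10 weeks. The sorted cells were incubated for 24 h in medium that held 5 mM lactate, 5 mM pyruvate and 5% dialyzed serum. One group received vehicle (0.15% DMSO), another 24 mM oxamate, an inhibitor of lactate dehydrogenase, with the same DMSO, and the last 24 mM oxamate with 0.3 mM octyl-L2HG, a cell-permeable ester of L-2-hydroxyglutarate, again in 0.15% DMSO. The design thus asked what changes when production of 2HG is inhibited, and what changes when L-2HG is added to inhibited cells. Each group had 3 libraries, which carry the numbers 1 to 3 (vehicle), 4 to 6 (oxamate) and 7 to 9 (both compounds).

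AMPK is a trimer of an alpha, a beta and a gamma subunit that is switched on when AMP and ADP rise relative to ATP, through phosphorylation of its alpha subunit by LKB1 or, in response to calcium, by CaMKK2. Active AMPK favours pathways that yield ATP and restrains biosynthesis, in part by phosphorylating raptor and TSC2. mTOR complex 1 (mTORC1), built from mTOR, raptor and mLST8, does the reverse: with nutrients and growth signals present it is recruited to lysosomes by the Rag GTPases, is activated there by Rheb, and promotes translation and growth. The TSC1-TSC2 complex turns Rheb off, and DDIT4 (REDD1), a protein induced by stress, acts through that complex. Male germ cells past meiosis rely heavily on lactate as a fuel, and they carry the lactate dehydrogenase isoform LDHC. The values below are transcript levels, and neither kinase activity nor phosphorylation was measured.

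The libraries held between 32339533 and 39888396 counted reads. Oxamate library 4 lay apart from oxamate libraries 5 and 6 in a principal component analysis whose first 2 axes held 49.7% and 20% of the variance, and vehicle library 1 lay apart from vehicle libraries 2 and 3 on the second axis. All libraries were kept, and fits that left out each in turn are given beside calls that they changed. No library was a copy of another: within groups, chi-square over degrees of freedom was at least 1.98 for every pair of libraries, above the value near 1 that sampling noise alone gives. The paper describes triplicate incubations of RS, but the labels do not say whether libraries of a group came from separate animals. The p-values measure the spread between these libraries. The 8 round spermatid markers checked (among them Acrv1, Spaca1, Tnp1 and Prm1) summed to between 74645 and 75919 normalized counts with vehicle, between 71458 and 73322 with oxamate and between 71485 and 72207 with both compounds. Spermatocyte markers summed to between 4673 and 5598 over all libraries. Markers of spermatogonia, Sertoli cells, Leydig cells, myoid cells and macrophages with blood summed to at most 135 for any list. Between vehicle and oxamate the sums overlapped for 3 of 7 lists. Beside the round spermatid markers, those of macrophages with blood were lower with oxamate, at between 72.4 and 90.5 against between 96.8 and 123, as were those of Leydig cells, at between 19.7 and 27.6 against between 28.4 and 38.2, and those of myoid cells were higher, at between 95.3 and 109.6 against between 86.2 and 92.5. Between vehicle and both compounds the sums overlapped for 6 of 7 lists, and between the oxamate group and the group with both compounds for 5 of 7. With both compounds Leydig cell markers summed to between 32.3 and 40.3, and spermatogonium markers to between 110.1 and 119, against between 119.1 and 121 with oxamate. Within the round spermatid list the markers moved apart. Against vehicle, both compounds lowered Prm1 and Tnp1, the genes of a protamine and a transition protein of late spermatids, by 0.77 and 0.56 on the log2 scale, and Catsper3 and Tssk1 by 0.24 and 0.20, while Acrv1 rose by 0.25 and Acr by 0.21, all called by edgeR. Prm1 and Tnp1 were also lower with oxamate than with vehicle and with both compounds than with oxamate. The part of these shifts in the results on the members was not tested.

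The promoters of Mtor, the most abundant of the 10 transcripts, and of Rptor, the member that changed most clearly, are shown because both proteins belong to the same complex, yet Rptor was called lower and Mtor was not. Each sequence runs from 250 bases before to 50 bases after the annotated start, is taken from RefSeq on build GRCm38.p6, and is given 5′ to 3′ on the plus strand, on which both genes lie. Capitals mark GC boxes (GGGCGG or its reverse complement CCGCCC) in Mtor and the core hypoxia response letters ACGTG in Rptor.
Mtor, chr4:148448332-148448631: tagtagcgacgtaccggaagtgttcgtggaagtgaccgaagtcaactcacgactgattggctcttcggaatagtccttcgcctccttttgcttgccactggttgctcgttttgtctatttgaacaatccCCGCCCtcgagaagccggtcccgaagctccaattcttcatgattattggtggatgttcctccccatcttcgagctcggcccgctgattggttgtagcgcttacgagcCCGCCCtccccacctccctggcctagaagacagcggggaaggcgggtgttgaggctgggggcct
Rptor, chr11:119602655-119602954: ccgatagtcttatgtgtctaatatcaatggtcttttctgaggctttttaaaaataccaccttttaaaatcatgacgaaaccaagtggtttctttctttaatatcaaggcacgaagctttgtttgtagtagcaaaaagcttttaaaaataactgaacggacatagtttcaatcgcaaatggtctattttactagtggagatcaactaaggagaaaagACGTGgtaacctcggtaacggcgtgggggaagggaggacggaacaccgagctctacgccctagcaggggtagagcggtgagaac
The Mtor promoter held 2 GC boxes and had a GC content of 56.7%. The Rptor promoter held no GC box and had a GC content of 41.7%, the lowest of the 10 members, at the 14.1 percentile of all promoters, whose median was 52.7%. All 10 members were matched in the table of 32851 promoters. On either strand, GGGCGG was present in the promoters of 6 members (Ddit4, Mtor, Prkaa1, Prkaa2, Prkag1 and Stk11) and in 35.7% of all promoters. ACGTG was present in 3 members (Ddit4, Rptor and Stk11) and in 19.6% of all promoters. The longer E-box CACGTG, which contains ACGTG, was in no member and in 7.15% of all promoters. The cAMP response element TGACGTCA was in no member and in 1.79%, and the amino acid response letters TGATGNAA were in no member and in 3.97%. These matches describe the letters in a window of 300 bases and do not show that a factor binds there.

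Levels of the 10 genes differed by nearly 3 orders of magnitude when normalized counts were divided by the length of the longest annotated transcript. Mtor stood first with 2022 ± 153 normalized counts per kb in vehicle libraries (SD, n = 3), at the 93.3 percentile of all genes with a length. Stk11 followed with 1446 ± 101 per kb. Prkaa1, Tsc2 and Tsc1 came next at 253.6, 238.3 and 212.9 per kb, and their vehicle libraries overlapped between neighbours in this order. Prkag1 with 119.9 and Rptor with 111.7 per kb also overlapped. Prkab1 at 8.78, Prkaa2 at 3.76 and Ddit4 at 2.63 per kb were far below the others, and the last pair overlapped. With the mean length of all annotated transcripts of a gene in place of the longest, Mtor and Stk11 remained first and second and Prkab1, Prkaa2 and Ddit4 remained last, but Tsc2 and Tsc1 moved above Prkaa1, and Rptor above Prkaa1 and Prkag1, so the order in the middle depends on which isoforms RS use.

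**Figure D1:**
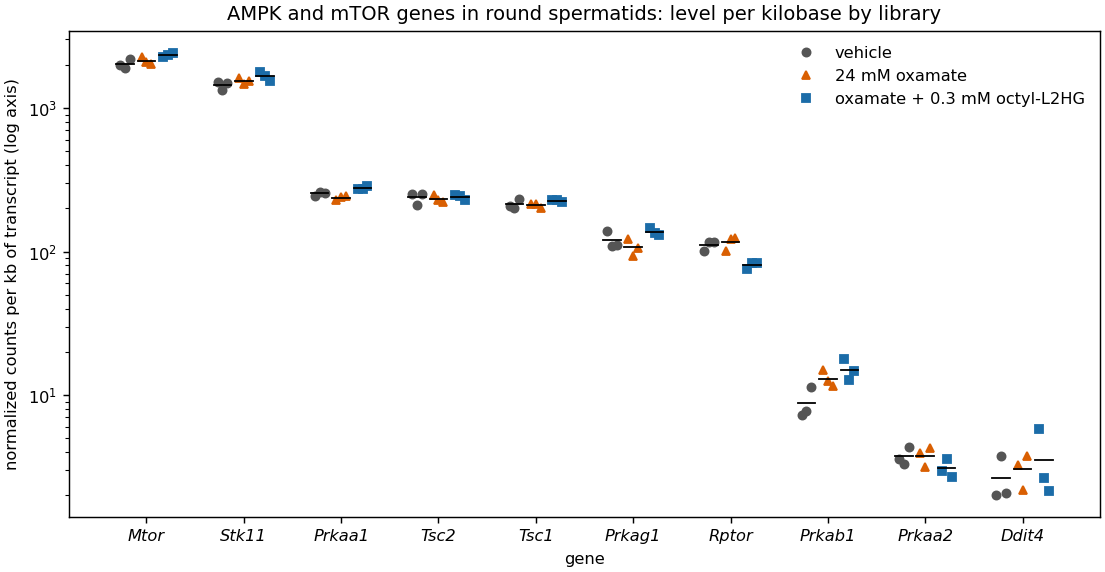
Normalized counts per kb of the longest annotated transcript (log axis) for the 10 genes, ordered by their vehicle mean, with circles for vehicle, triangles for oxamate and squares for oxamate with octyl-L2HG, each symbol 1 library and each black bar the mean of 3. Mtor and Stk11 lie above all other genes in every library, Ddit4 has the lowest mean with vehicle, and of the middle genes Rptor is the one whose squares fall below all other symbols of that gene.

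The members that make up AMPK were unequal in level. Among the alpha subunits, which carry the kinase domain, Prkaa2 (AMPK alpha2) contributed 1.46 ± 0.21% of the length-normalized alpha reads in vehicle libraries, 1.57 ± 0.24% with oxamate and 1.11 ± 0.19% with both compounds (SD, n = 3), so nearly all alpha transcript was Prkaa1 (AMPK alpha1). These shares overlapped between the groups. Of the beta subunits, which hold the trimer together, Prkab1 was the minor form: Prkab2 reached 67.6 ± 4.3 per kb in vehicle libraries against 8.78 ± 2.28 for Prkab1. Of the gamma subunits, which bind adenine nucleotides, Prkag2 was the most abundant with 3559 ± 68.7 per kb against 119.9 ± 16.8 for Prkag1. Prkag3, the form known from skeletal muscle, had at most 2 counts in any library, and its 9 libraries summed to too few counts for testing. The most abundant transcript of each subunit type in RS thus came from Prkaa1, Prkab2 and Prkag2. Of the partners of LKB1, Strada, the pseudokinase that activates it, had 1767 ± 110 per kb in vehicle libraries. Of its scaffolds, Cab39l (MO25beta) had 1323 ± 44.9 per kb and Cab39 (MO25alpha) 692 ± 32.2. Of the partners of mTOR, Akt1s1 (PRAS40) had 250.9 ± 47.5 per kb, Rictor, the defining subunit of mTOR complex 2, 11.8 ± 0.7, and Mlst8 10.7 ± 1.7, while Deptor had between 1 and 5 counts per library.

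Across the 3 groups, the mTORC1 subunit Rptor was lower with both compounds than in either other group, Prkab1 was higher with both compounds than with vehicle, and the other 8 members were not called in any comparison. Calls are adjusted p-values under 0.05 from the quasi-likelihood test of edgeR, adjusted by Benjamini-Hochberg over all genes tested. Between oxamate and vehicle no member was called in either direction, beside 3.97% of all genes called higher and 1.22% called lower. In that comparison 1 member was higher and 0 lower at an unadjusted p under 0.05, beside 2558 and 1790 of the 25128 genes tested. DESeq2 also called 0 members, beside 984 of these genes higher and 270 lower. Between both compounds and oxamate, no member was called higher by edgeR (3.18% of all genes), while 2 were higher at an unadjusted p under 0.05. At that cutoff 2135 of the 25128 genes tested were higher. DESeq2 called 1 member higher, Prkaa1, beside 1234 of these genes. In the same comparison 1 member, Rptor, was called lower, beside 8.06% of all genes. Between both compounds and vehicle, 1 member was called higher, beside 7.48% of all genes, and 1 lower, beside 10.6%. In the test for any difference among the 3 groups Rptor alone was called, 1 of 10 members beside 19.8% of all genes. A single call among 10 members is near these shares, so the calls are described gene by gene. Their median log2 fold changes were 0.03, 0.10 and 0.13 in these comparisons, beside −0.01, −0.04 and −0.05 over all genes tested. The comparisons share groups of libraries, so their results are not independent of each other.

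**Figure D2:**
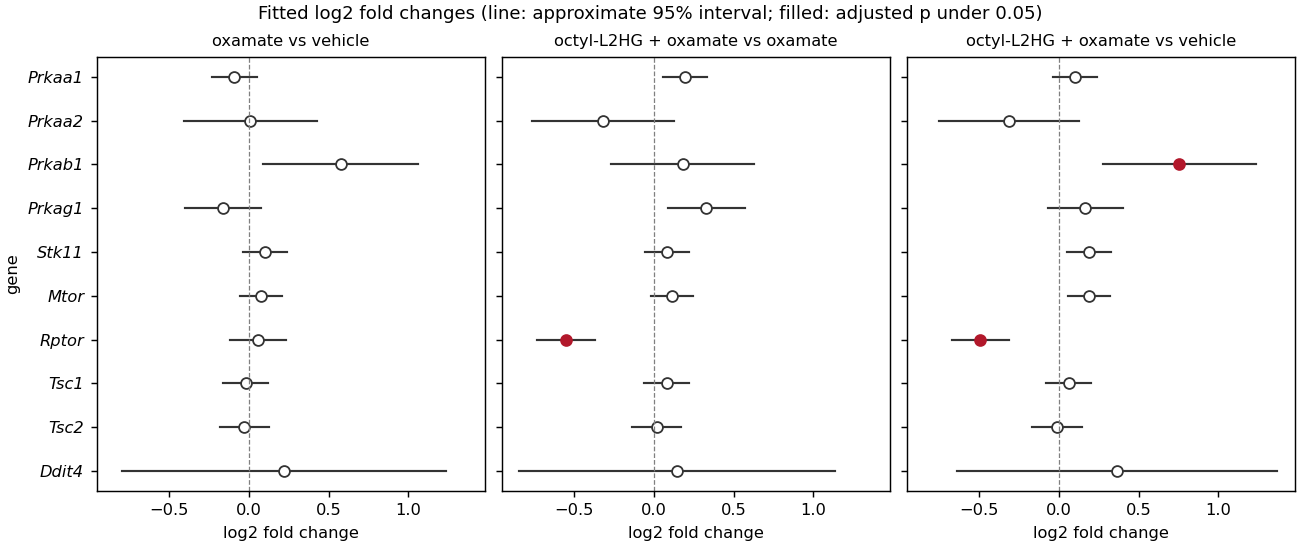
Fitted log2 fold changes (x axis) of the 10 genes (y axis) in the 3 comparisons, 1 panel each, with lines for the approximate 95% interval and filled points for an adjusted p under 0.05. Rptor lies at −0.55 and −0.49 where octyl-L2HG was present, Prkab1 at 0.76 against vehicle, and the lines of Ddit4 span more than 1 log2 unit.

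Rptor, which encodes raptor, the subunit that presents substrates to mTOR, fell when octyl-L2HG was present with oxamate. The vehicle libraries held 668, 772 and 769 normalized counts of Rptor. The oxamate libraries held 669.7, 807 and 819, of which library 4 was the lowest. The libraries with both compounds held 499, 545 and 548. All 3 of these lay below all 6 other libraries, whereas the vehicle and oxamate libraries overlapped. Against oxamate the log2 fold change was −0.55 (SE 0.09), which is 0.682 of the oxamate level, with an adjusted p of 0.000436 by edgeR. Against vehicle it was −0.49 (SE 0.09), with an adjusted p of 0.00051 by edgeR. Between oxamate and vehicle it was 0.06 (SE 0.09), with an adjusted p of 0.815 by edgeR, and the approximate 95% interval from the standard error reached from −0.12 to 0.23. Without oxamate library 4 the change against oxamate was −0.63, and without vehicle library 1 the change against vehicle was −0.56. Both falls were called in each of the 9 fits that left out 1 library and under all 8 other settings tried, with log2 fold changes between −0.63 and −0.45 in the former and between −0.60 and −0.45 in the latter. In bulk libraries, fewer RNA molecules per cell and fewer cells that carry them cannot be told apart.

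Related to Mtor in the same library, a measure that needs no scaling of libraries, Rptor was also lower with both compounds. The vehicle libraries held 3.92, 4.77 and 4.10 Rptor reads per 100 Mtor reads, and the oxamate libraries 3.46, 4.54 and 4.69. The libraries with both compounds held 2.57, 2.71 and 2.66, all below the other 6. The means were 4.27 ± 0.45, 4.23 ± 0.67 and 2.65 ± 0.08 (SD, n = 3). Mtor itself was highest with both compounds, by 0.11 against oxamate and 0.19 against vehicle on the log2 scale, neither called by edgeR. Part of the fall in the ratio thus comes from Mtor. The antisense gene Rptoros shares 0.62% of the exon bases of Rptor and had a mean count of 19.8, beside between 444 and 840 counts of Rptor. Over the 9 libraries, the profiles most like that of Rptor among 10714 genes (those that averaged 100 normalized counts or more) were those of Kpna1, a nuclear import receptor, and G2e3, a ubiquitin ligase. Their centred log2 levels differed from that of Rptor by a root mean square of 0.05 each, while Rptor itself varied around its mean by 0.26.

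**Figure D3:**
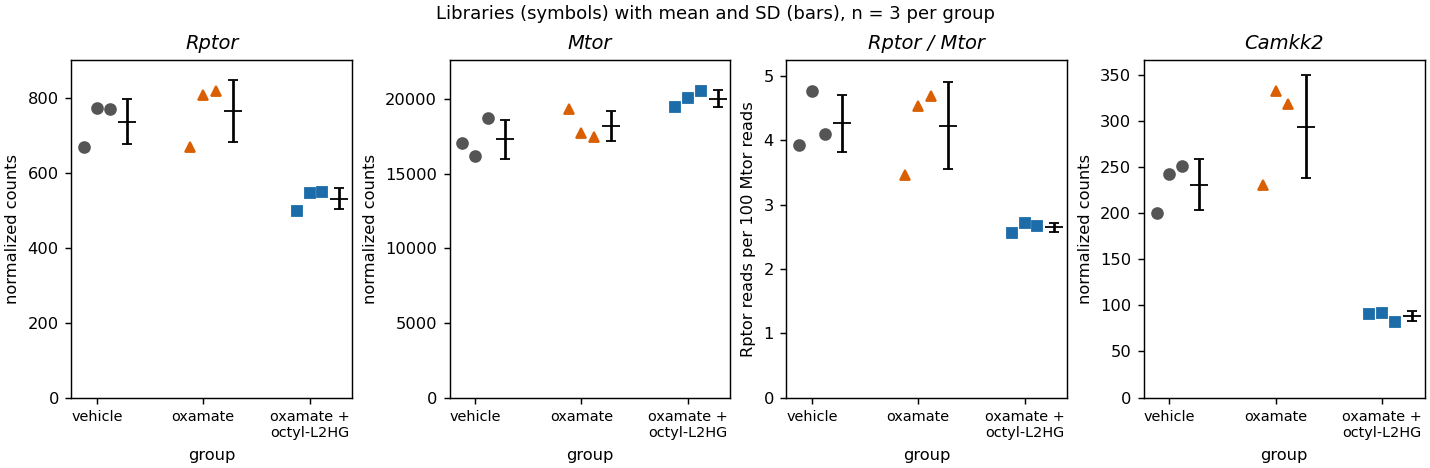
Normalized counts of Rptor, Mtor and Camkk2 and the number of Rptor reads per 100 Mtor reads (y axes, from 0) in the 3 groups, with 1 symbol per library and the mean with its SD (n = 3) at the right of each group. With both compounds Rptor, the ratio and Camkk2 lie below all vehicle and oxamate libraries, while Mtor lies above them.

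Mtor, the kinase itself, was highest with both compounds, by a small margin. Its vehicle libraries held 17027, 16178 and 18745 normalized counts, its oxamate libraries 19355, 17756 and 17452, and the libraries with both compounds 19442, 20096 and 20558. The last group lay above all others, and the vehicle and oxamate libraries overlapped. Against vehicle the log2 fold change was 0.19 (SE 0.07) with an adjusted p of 0.0538 by edgeR, which missed the threshold. It was called under 6 of 8 other settings, with adjusted p-values from 0.00844 to 0.319 over all 8, and without vehicle library 3, oxamate library 4 or oxamate library 6. No call was made with total counts as the scaling (0.13, adjusted p 0.188 by edgeR). The same held with an offset for transcript length (0.11, adjusted p 0.319 by edgeR). Against oxamate the log2 fold change was 0.11 (SE 0.07) with an adjusted p of 0.332 by edgeR, and 0.17 with an adjusted p of 0.0465 without oxamate library 4.

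Of the AMPK subunits, Prkab1 was called against vehicle and stood at a low level. It had 15.1, 16.1 and 23.8 normalized counts with vehicle, 31.4, 26.0 and 24.1 with oxamate, and 37.1, 26.5 and 30.9 with both compounds. The vehicle libraries lay below all 6 others, and the groups with oxamate and with both compounds overlapped. With both compounds the log2 fold change against vehicle was 0.76 (SE 0.24), with an adjusted p of 0.0343 by edgeR. With oxamate alone it was 0.58 (SE 0.25), with an adjusted p of 0.222 by edgeR. The raw counts summed to 60 with vehicle (exact Poisson 95% interval 45.8 to 77.2) and to 89 with both compounds (71.5 to 110), intervals that cover counting error only. The call against vehicle was lost without vehicle library 1 or 2 or library 7 or 9 with both compounds, with DESeq2 (adjusted p 0.0843) and with total counts as the scaling (adjusted p 0.0517). Its log2 fold change stayed between 0.63 and 1.00 over the fits without 1 library.

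Prkaa1, the main alpha subunit, was lowest with oxamate and highest with both compounds, with no overlap between the 3 groups. It had 1138, 1211 and 1192 normalized counts with vehicle, 1059, 1120.3 and 1137 with oxamate, and 1270.1, 1259 and 1329 with both compounds. The vehicle and oxamate groups were separated by less than 2 normalized counts. The log2 fold change of both compounds against oxamate was 0.19 (SE 0.07), with an adjusted p of 0.0853 by edgeR and of 0.0279 by DESeq2. It was called under 4 of 8 other settings and in 0 of the 9 fits without 1 library. Prkaa2 had 28.4, 26.5 and 34.8 normalized counts with vehicle, 31.4, 25.0 and 34.0 with oxamate, and 23.6, 28.8 and 21.5 with both compounds. Its groups overlapped in each comparison, and the log2 fold changes of both compounds had a standard error of 0.22 to 0.23, so changes of that size could not be detected at this depth.

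Prkag1 had 230.1, 181 and 183 normalized counts with vehicle, 202, 153 and 174 with oxamate, and 240.3, 224 and 214 with both compounds. The libraries with both compounds lay above the oxamate libraries and overlapped with vehicle. Against oxamate the log2 fold change was 0.33 (SE 0.12), with an adjusted p of 0.0915 by edgeR. Without oxamate library 4 it was 0.45, with an adjusted p of 0.00813, the only fit of the 9 without 1 library in which it was called. Over these 9 fits the adjusted p reached 0.367, and it was called under 2 of 8 other settings. The antisense gene B130046B21Rik covers 43.7% of the exon bases of Prkag1, but its mean count was 1.2, and the strand setting of the counting is not given in the sources used here.

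Stk11, the gene of LKB1, was abundant in all groups. It had 5550.4, 4872 and 5463 normalized counts with vehicle, 5968, 5415 and 5617 with oxamate, and 6529, 6144 and 5679 with both compounds. The libraries with both compounds lay above the vehicle libraries, and oxamate overlapped with both groups. Against vehicle the log2 fold change was 0.19 (SE 0.07) with an adjusted p of 0.0728 by edgeR, and it passed the threshold under 5 of 8 other settings and in 1 of 9 fits without 1 library, that without oxamate library 4. Over the 8 settings the adjusted p ranged from 0.0149 to 0.223.

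The brakes on mTORC1 showed no called difference. Tsc1 (hamartin) had between 1541 and 1783 normalized counts with vehicle, between 1538 and 1659 with oxamate and between 1700 and 1762 with both compounds. Its log2 fold changes were −0.02 with oxamate and 0.06 with both compounds against vehicle, each with a standard error of 0.07. Tsc2 (tuberin), the subunit that acts on Rheb, had 1575, 1319 and 1584 normalized counts with vehicle, 1558, 1423 and 1396 with oxamate, and 1557, 1522 and 1434 with both compounds. The groups overlapped, with log2 fold changes of −0.03, 0.02 and −0.01 and standard errors of 0.08. The approximate 95% intervals of the Tsc2 changes lay between −0.18 and 0.17. Pkd1, the neighbour on the opposite strand, shares 7.2% of the exon bases of Tsc2 and had a mean count of 291.7.

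Ddit4 was barely detected, with 4, 7 and 4 counts with vehicle, 6, 4 and 6 with oxamate, and 9, 4 and 4 with both compounds. The summed counts of 15, 16 and 17 had exact Poisson 95% intervals of 8.4 to 24.7, 9.15 to 26.0 and 9.9 to 27.2. The approximate 95% interval of its log2 fold change with both compounds against vehicle reached from −0.64 to 1.37, so neither the size nor the direction of a change was resolved at this depth. Its relative Ddit4l (REDD2), which shares the brake function, was far more abundant, with means of 702, 682 and 610.2 normalized counts, and was not called in any comparison.

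The proteins that work with the members were followed through 10 lists of the same pathways, which hold 94 further genes, of which 90 were tested. Between oxamate and vehicle 9 of these were called higher, beside 3.97% of all genes, and 0 lower, beside 1.22%. At an unadjusted p under 0.05, 3 were lower, beside 1790 of the 25128 genes tested. Between both compounds and oxamate 7 were higher, beside 3.18% of all genes, and 10 lower, beside 8.06%. Between both compounds and vehicle 18 were higher, beside 7.48%, and 9 lower, which is near the 10.6% of all genes. In the test for any difference 29 of the 90 were called, beside 19.8%. Without oxamate library 4 these counts were 14 higher against oxamate, 14 lower against vehicle and 48 for any difference, and 2 were then lower with oxamate than with vehicle. The shares of all genes called rose as well in that fit, to 6.38%, 13.7%, 29.7% and 2.86%. Other libraries lowered the counts: 4 were higher with oxamate without vehicle library 2, beside 2.19% of all genes, and 3, 4 and 4 were higher against oxamate without libraries 7, 8 and 9 with both compounds, beside 0.978%, 1.07% and 1.62%. Their median log2 fold changes of 0.07, 0.03 and 0.08 stand beside −0.01, −0.04 and −0.05 over all genes tested. The lists are described by their counts only, and the members stand beside them in the plot of the lists. Shares over all 25128 genes tested include genes of low count and were not matched to the level of the listed genes.

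**Figure D4:**
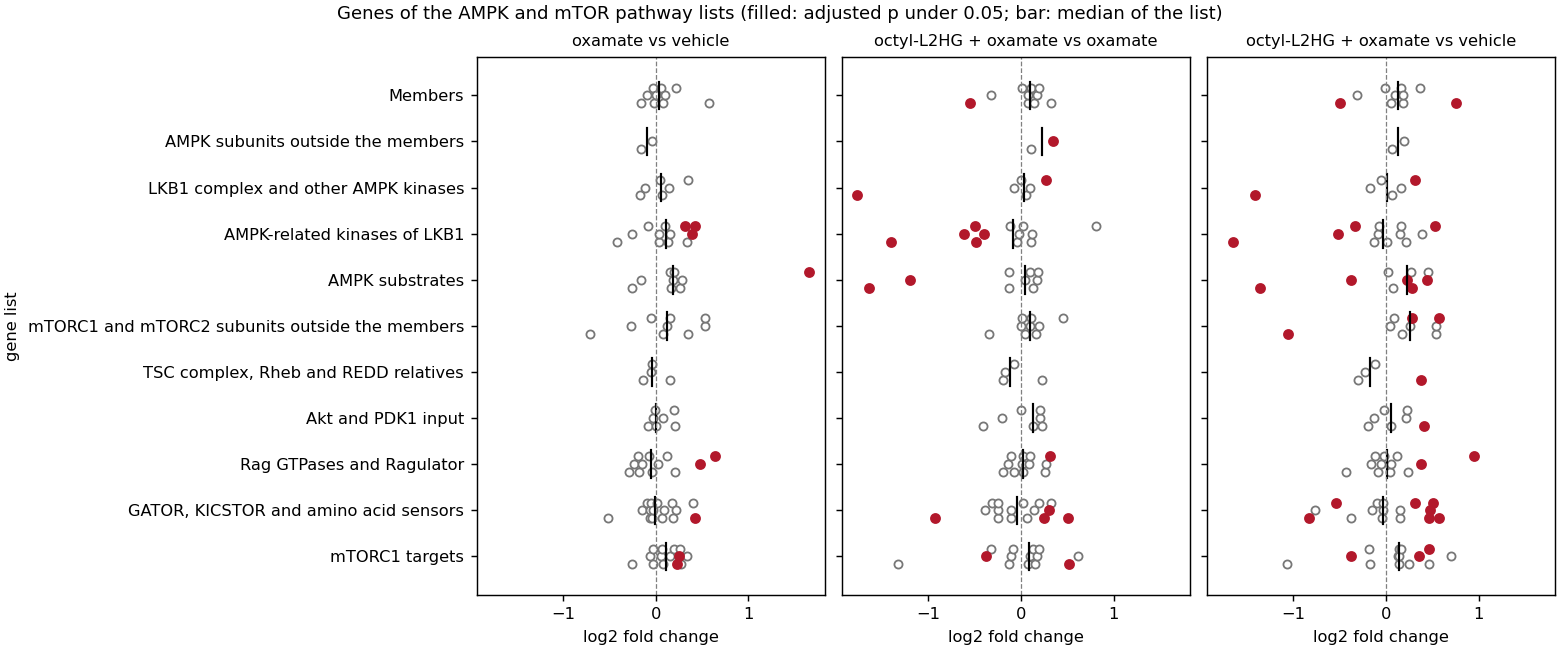
Fitted log2 fold changes (x axis) of the tested genes of the members and of the 10 pathway lists (y axis) in the 3 comparisons, 1 panel each, with filled points for an adjusted p under 0.05 and a bar at the median of each list. In the panel of both compounds against oxamate, the called genes among the kinases related to AMPK all lie below 0, and the point at −1.76 among the AMPK kinases is Camkk2.

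Among the kinases that act on AMPK, Camkk2, the calcium-dependent one, fell most. Its vehicle libraries held 199.9, 243 and 251 normalized counts, its oxamate libraries 231, 333 and 319, and the libraries with both compounds 91.0, 92.2 and 82.4. The last group did not overlap with the others. The log2 fold change was −1.76 (SE 0.14) against oxamate and −1.41 (SE 0.14) against vehicle, with adjusted p-values of 1.89e-07 and 8.10e-07 by edgeR, and both calls held in all 9 fits without 1 library. Cab39, the less abundant scaffold of the LKB1 complex by level per kb, rose with both compounds, from a mean of 2634 with vehicle and 2712 with oxamate to 3337 normalized counts. Its log2 fold changes were 0.27 against oxamate and 0.32 against vehicle, with adjusted p-values of 0.0111 and 0.00185 by edgeR, and the former call was lost without library 7 with both compounds. Cab39l, the more abundant scaffold, had means of 4691, 4336 and 4606 normalized counts and was not called, with −0.05 against vehicle and an adjusted p of 0.701 by edgeR. The pseudokinases Strada and Stradb were not called either, with 0.16 and −0.16 against vehicle and adjusted p-values of 0.129 and 0.308 by edgeR. In both comparisons with octyl-L2HG, 1 of the 6 tested genes of this list was called higher and 1 lower, beside 3.18% and 8.06% of all genes against oxamate and 7.48% and 10.6% against vehicle.

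Of the AMPK subunits outside the members, Prkab2, the main beta form, was higher with both compounds than with oxamate, with means of 303 and 392 normalized counts. Its log2 fold change was 0.35 (SE 0.10) with an adjusted p of 0.0224 by edgeR, and the call was lost without oxamate library 6 or library 9 with both compounds. Prkag2, the main gamma form, had means of 11854, 11510 and 12647 normalized counts and was not called, with an adjusted p of 0.285 by edgeR against oxamate.

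The 12 kinases related to AMPK, which LKB1 also activates, held calls in both directions. Against vehicle, oxamate raised 3 of them, beside 3.97% of all genes, and lowered 0. Sik2, a salt-inducible kinase, rose from a mean of 1537 to 2055 normalized counts, a log2 fold change of 0.42 (SE 0.07) with an adjusted p of 0.00075 by edgeR, and stayed high at 2258 with both compounds. With both compounds 1 was higher and 3 lower than with vehicle, beside 7.48% and 10.6% of all genes. When octyl-L2HG was added to oxamate 0 were higher and 5 lower, beside 8.06% of all genes called lower. Among the 5 were Snrk at −0.61 (SE 0.09) and Mark3, a microtubule affinity regulating kinase, at −0.49 (SE 0.08). Snrk had means of 550, 587 and 392 and Mark3 of 2189, 2433 and 1760 normalized counts with vehicle, oxamate and both compounds. The other 3 were named with their values in view. Mark2 and Brsk2 rose with oxamate and fell with octyl-L2HG, from 289 to 380.2 and 278 for Mark2 and from 1516 to 1883 and 1462 for Brsk2, and neither was called between both compounds and vehicle. The call of the rise with oxamate was lost without vehicle library 2 for both genes, and for Mark2 also without vehicle library 1 or oxamate library 6, while its log2 fold change stayed between 0.35 and 0.44 for Mark2 and between 0.29 and 0.35 for Brsk2. Nuak2 had means of 48.6, 40.7 and 16.0 normalized counts.

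Among 9 tested genes of AMPK substrates, 1 was called higher with oxamate (3.97% of all genes), 2 were lower with octyl-L2HG than with oxamate alone (8.06%), and 3 were higher (7.48%) and 2 lower (10.6%) with both compounds than with vehicle. Ulk1, the autophagy kinase that both AMPK and mTORC1 phosphorylate, was lower with both compounds than with vehicle by a log2 fold change of −0.38 (SE 0.13), with an adjusted p of 0.0428 by edgeR. That call was lost without vehicle library 2 or 3, oxamate library 5 or library 7 or 8 with both compounds, where the adjusted p reached 0.203. It was lost with DESeq2 (adjusted p 0.0915), with DESeq2's size factors (0.0525) and with no filter (0.08), and kept under 5 of 8 other settings. The genes with the largest changes had low counts, and these genes were named only once their values had been seen. Acacb, the mitochondrial acetyl-CoA carboxylase, had 8.885, 9.48 and 8.24 normalized counts with vehicle, 29.5, 29.8 and 24.1 with oxamate, and 14.6, 10.4 and 12.2 with both compounds. The 3 groups did not overlap. The log2 fold change was 1.65 (SE 0.27) with oxamate and −1.19 (SE 0.26) when octyl-L2HG was added, with adjusted p-values of 0.000603 and 0.00415 by edgeR. Srebf1, which encodes a transcription factor of lipid synthesis, had means of 39.3, 47.8 and 15.7 normalized counts and fell by 1.63 on the log2 scale between oxamate and both compounds.

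Of the 9 further subunits of the mTOR complexes, 2 were higher (7.48% of all genes) and 1 lower (10.6%) with both compounds than with vehicle, and 0 were called in either other comparison by edgeR. Mlst8, the subunit shared by both complexes, rose from a mean of 41.2 with vehicle to 62.3 normalized counts with both compounds, which is 0.57 (SE 0.19) on the log2 scale, with an adjusted p of 0.0388 by edgeR. That call was lost without vehicle library 2 or 3 or library 8 or 9 with both compounds. In the same comparison Rptor fell by 0.49 on that scale. Akt1s1 had means of 554, 532 and 582, Rictor of 109, 123 and 133 and Deptor of 2.48, 2.00 and 2.77 normalized counts, and none of them was called. The remaining calls against vehicle, named with their values in view, were Mapkap1 at 0.28 and Prr5 at −1.05 on the log2 scale. Their adjusted p-values were 0.00547 and 0.00494 by edgeR. Prr5 stood at a low level, with means of 26.9 normalized counts with vehicle and 13.0 with both compounds. Of the 4 genes of the TSC complex, Rheb and the REDD relatives, Rheb, the GTPase that activates mTORC1, was higher with both compounds than with vehicle, with means of 182 and 137 normalized counts, a log2 fold change of 0.38 (SE 0.12) and an adjusted p of 0.0262 by edgeR. The call was lost without any vehicle library in turn and without library 7 or 8 with both compounds. Tbc1d7, the remaining subunit of the TSC complex, had means of 431, 414 and 402 and was not called.

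The Rag GTPases and their regulators, which bring mTORC1 to the lysosome, held 2 called genes among 12 tested. Both were higher with oxamate than with vehicle (3.97% of all genes) and with both compounds than with vehicle (7.48%), and 1 was higher with octyl-L2HG than with oxamate alone (3.18%). Rragc had 538, 543 and 533 normalized counts with vehicle, 857, 848 and 798 with oxamate, and 1098, 1026 and 1049 with both compounds. It rose in each step without overlap, with log2 fold changes of 0.64 (SE 0.08) with oxamate against vehicle and 0.32 (SE 0.07) with octyl-L2HG against oxamate, and adjusted p-values of 2.25e-05 and 0.00739 by edgeR. Against vehicle the change with both compounds was 0.95 (SE 0.08). Fnip1, which encodes a folliculin partner that binds AMPK, rose from a mean of 2460.2 with vehicle to 3423 with oxamate and 3238 with both compounds. Of the 12 tested genes of this list, no other was called in any comparison.

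Of 16 genes of amino acid sensing upstream of the Rags, 1 was higher with oxamate (3.97% of all genes), 3 were higher (3.18%) and 1 lower (8.06%) with octyl-L2HG than with oxamate alone, and 5 were higher (7.48%) and 2 lower (10.6%) with both compounds than with vehicle. The counts of lower genes in this list are near those shares. Sesn2, a leucine sensor induced by stress, rose from a mean of 179.6 with vehicle to 239.4 with oxamate and 269.8 normalized counts with both compounds. Its log2 fold change with both compounds was 0.57 (SE 0.12), with an adjusted p of 0.00171 by edgeR, and was called in all 9 fits without 1 library. The change with oxamate alone was 0.42 with an adjusted p of 0.0437 by edgeR, but it was called in only 1 of those 9 fits, that without oxamate library 6, and was 0.30 with an adjusted p of 0.101 without oxamate library 4. Wdr24, a subunit of GATOR2, was higher with octyl-L2HG than with oxamate alone by 0.51 (SE 0.15), with an adjusted p of 0.0304 by edgeR. Its oxamate libraries were far apart, with 662 normalized counts in library 4 against 387 and 389 in libraries 5 and 6, and the call was lost without oxamate library 5 or 6 or any library with both compounds. Without oxamate library 4 the change was 0.83 with an adjusted p of 9.73e-09, without library 5 it was 0.38 with an adjusted p of 0.154, and with DESeq2 the adjusted p was 0.0794.

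Of the 14 mTORC1 targets, 2 were higher with oxamate than with vehicle (3.97% of all genes) and 0 lower, 1 was higher (3.18%) and 1 lower (8.06%) with octyl-L2HG than with oxamate alone, and 2 were higher (7.48%) and 1, Ulk1, lower (10.6%) with both compounds than with vehicle. Rps6kb1, the gene of S6 kinase 1, was higher with octyl-L2HG than with oxamate alone, with means of 128.6 and 87.6 normalized counts. Its log2 fold change was 0.52 (SE 0.14) with an adjusted p of 0.0147 by edgeR, and the call was lost without library 7 or 8 with both compounds. Against vehicle it was 0.46 with an adjusted p of 0.0168 by edgeR, a call lost without vehicle library 3 or library 7 or 8 with both compounds. The other genes called were named with their values in view. Eef2k, the kinase that slows translation elongation, was lower with octyl-L2HG than with oxamate alone, with means of 806 and 1029 normalized counts. Its log2 fold change was −0.38 (SE 0.07) with an adjusted p of 0.00174 by edgeR, and it was called in all 9 fits without 1 library. Larp1, which encodes a repressor of the translation of ribosomal protein mRNAs, was higher with both compounds than with vehicle by 0.36 with an adjusted p of 0.000244 by edgeR, also called in all 9. With oxamate alone Larp1 and Lpin1, the gene of a phosphatidate phosphatase, were higher than with vehicle by 0.22 and 0.25, with adjusted p-values of 0.0341 and 0.0197 by edgeR, calls kept in only 3 and 5 of the 9 fits. Akt and PDK1 input held 1 call in 7 genes, higher with both compounds than with vehicle, beside 7.48% of all genes: Akt1, named with its values in view, with a log2 fold change of 0.41 (SE 0.07).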

How the data were processed

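PolyA-selected RNA was sequenced from stranded libraries of RS. Per the labels and methods, the authors trimmed reads with cutadapt 2.10, aligned them with TopHat2 2.1.1 to the mouse genome (GRCm39 in the submitters' processing notes, which also list WBcel235) and counted them per gene with HTSeq 2.01. The authors deposited these counts without normalization, and beside them a normalized signal, the count divided by 1 DESeq2 1.36.0 size factor per library, called normalized counts here. Of 55414 genes, 6250 are blank and are not used; every value column was used.

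The counts were fitted in edgeR 4.0.16 (R 4.3.3, TMM, robust quasi-likelihood) with the group as the only term over all 9 libraries, on genes with at least 10 counts summed over them, and called at an adjusted p under 0.05. Normalized counts are not TMM-scaled, so fitted changes can differ slightly from ratios of printed means. Alternatives were DESeq2 1.42.0 as the test, scaling by its size factors or by total counts, no filter or filterByExpr, a fit of only the groups compared, dispersion that is not robust, an offset for transcript length, and each library left out. Lengths and overlaps came from a GRCm38 annotation matched by gene identifier (99.6% of genes tested), and levels per kb are a description.

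The members and lists were chosen with earlier results of these data known. Named genes were the 10 members, a fixed set of partners of their complexes, of the other pathway genes the 3 called with the largest change per comparison and direction at a mean of at least 100 normalized counts, and for a member called in the test for any difference the 2 genes with the nearest profile. Mark2, Brsk2, Nuak2, Acacb, Srebf1, Akt1, Eef2k, Larp1, Lpin1, Mapkap1 and Prr5 were named outside this rule, with their values known. Cab39l and Stradb, further partners of LKB1, were also named outside it.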

Additional observations from a re-analysis of the deposited data

How the results depend on the processing

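The fall of Rptor and the count of 0 members called between oxamate and vehicle held under every alternative tried, and the cause of the changes below was not tested. Members called higher with both compounds than with oxamate numbered 0, but 1 with DESeq2's size factors, filterByExpr, DESeq2 or the length offset and 2 with no filter, and 0 to 2 when a library was left out. Of all genes, 798 of 25128 were called higher in the main fit, 1106 with DESeq2's size factors, 1234 with DESeq2 and 996 with the length offset. With filterByExpr 1167 of 18123 were, and with no filter 1429 of 37089. Against vehicle the number of members was 1, but 3 with DESeq2's size factors, no filter, filterByExpr or only the groups compared, 2 with DESeq2 or without robust dispersion, and 0 with total counts, and 0 to 3 when a library was left out. Of all genes, 1879 of 25128 were called higher against vehicle in the main fit, 2206 with DESeq2's size factors and 2134 with DESeq2. They numbered 1898 without robust dispersion and 1231 with total counts. With filterByExpr 2205 of 18123 were called, with only the groups compared 2850 of 23574, and with no filter 2690 of 37089. The number of members was 0 without vehicle library 1 or 2 or library 7 or 9 with both compounds. In these fits 5.94%, 5.76%, 4.73% and 5.6% of all genes were called higher. It was 3 without oxamate library 4, beside 11.4% of all genes. Members called for any difference numbered 1, but 4 with no filter or without oxamate library 4, 3 without vehicle library 3, and 1 to 4 over all libraries left out. The share of all genes called for any difference was 29.7% without oxamate library 4 and 16.7% without vehicle library 3.

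Pathway genes lower with oxamate numbered 0, but 1 with the length offset and 0 to 2 when a library was left out. Those higher with oxamate ranged from 4 to 12. Those higher with both compounds than with oxamate numbered 7, but 12 with DESeq2's size factors or filterByExpr, 13 with no filter or DESeq2, and 3 to 14 when a library was left out. Those lower with both compounds than with vehicle ranged from 6 to 14, and those called for any difference from 22 to 48. The values of 2, 14, 14 and 48 came without oxamate library 4, that of 4 with oxamate without vehicle library 2, and the lowest values of 3 and 4 against oxamate without library 7, 8 or 9 with both compounds. Calls over all genes moved between settings as well, as given above. With the length offset 242 of 25128 genes were lower with oxamate, beside 306 in the main fit.

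Changes near 0 turned sign. Prkaa2 with oxamate was −0.0101 with total counts, −0.0594 with the length offset and −0.0739 to 0.1298 when a library was left out. Rptor with oxamate was −0.0056 with the length offset and −0.0076 to 0.1418 when a library was left out. Tsc1 with both compounds against vehicle was −0.002 with total counts and −0.0138 with the length offset, and with oxamate −0.0579 to 0.0344 when a library was left out. Tsc2 with both compounds against oxamate was −0.027 with total counts. Tsc2 against vehicle was 0.0099 with DESeq2's size factors or DESeq2, 0.0337 with no filter, 0.0022 with filterByExpr and 0.0044 with only the groups compared. When a library was left out, Tsc2 ranged from −0.105 to 0.0128 with oxamate, from −0.0181 to 0.0725 with octyl-L2HG against oxamate and from −0.0874 to 0.0447 with both compounds against vehicle, and Ddit4 from −0.3796 to 0.4304 and from −0.1617 to 0.7058 in the last 2 comparisons.

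Scaling by total counts moved the median of all genes between both compounds and vehicle to −0.11, from −0.05 with TMM, and the calls to 1231 higher and 3367 lower, from 1879 and 2655. With no filter they were 2690 and 2421. Between both compounds and oxamate the calls were 798 higher and 2025 lower, 421 and 2516 with total counts, and 1429 and 1797 with no filter. Longer transcripts tended to be higher with oxamate and with both compounds than with vehicle, with a Spearman rho of 0.337 and 0.352 across 10697 genes, which are not independent. No paired analysis was run. The libraries are numbered in series across the groups, and the labels do not say whether libraries of different groups were matched. Libraries 1 and 4 were each the highest of their group on the second axis of the principal component analysis, at 14.04 and 3.558. Library 7 was the lowest of its group there, at −0.2066. Whether libraries at the same place in each group share a source was not tested. Depth limited Ddit4, Prkaa2 and Prkab1.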
